A study of Homo sapiens with 4 samples.

Results

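Genes of glutathione and thioredoxin metabolism, iron storage and the NRF2 response, 10 in all, were followed across 4 RNA-seq libraries of HT8, a human cell line whose tissue is labelled as colon cancer. They are FTH1, FTL, HMOX1, NQO1, GCLC, GCLM, SLC7A11, TXNRD1, SRXN1 and GPX2. They were taken by name, as 10 of the 58735 gene IDs in the deposited tables, after symbols were given to the IDs with GENCODE 29, and all 10 were found and passed the filter on low values. The control group (source label HT8, genotype control) had 2 libraries, and the other group (source label HT8-cas1, genotype PPDPF knockdown) had 2. Both groups share the cell line, and no treatment, time or agent is given for either. The labels do not say what cas1 stands for, whether a group is 1 clone, or whether its 2 libraries came from separate cultures. The p-values thus rest on the spread between these 4 libraries alone, and that spread may be technical.

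The mRNA of the targeted gene was not lower in the group labelled PPDPF knockdown, and mRNA alone cannot show whether the protein was lost. PPDPF stood at 237 and 266 FPKM in control against 281 and 283 FPKM in the other group, a log2 fold change of 0.16 (SE 0.06) short of the threshold (limma adjusted p = 0.0940). Leaving out control replicate 2 made it pass as higher, at 0.25 on the log2 scale (limma adjusted p = 0.0233, range over the alternatives 0.0105 to 0.281). The second group is therefore called the libraries labelled knockdown, and a rise or fall means their difference from control. FPKM are reads scaled to exon length and to a divisor for each library. That divisor differed from the reads in genes by 1.368% and 0.895% in control. In the libraries labelled knockdown it differed by -0.415% and -0.664%. The median log2 fold change over all genes tested was 0.001 on FPKM and -0.021 with voom on recovered reads. Reads in genes numbered 17069628 to 19479906 per library, and mitochondrial reads took 2.87% and 2.76% of them in control and 2.35% and 2.19% in the libraries labelled knockdown. All 11 listed colon epithelium markers were tested. Their summed level was 2682 and 2874 FPKM in control against 3223 and 3200 FPKM in those labelled knockdown. Of them 6 rose and 1 fell, so that 63.6% were called, where 29.9% of all genes tested were. Of 10 leukocyte markers, PTPRC, CD3E, CD3D, MS4A1 and TYROBP were listed at 0, and the summed level was 2.39 to 2.59 FPKM in control and 1.38 to 1.59 FPKM in the other group. CD14, the only leukocyte marker tested, had 1.57 and 1.86 FPKM in control against 0.860 and 0.907 FPKM in the other group. It was called lower (limma adjusted p = 0.0336), and in 4 of 10 alternatives. Fibroblast, endothelial and erythroid markers had no tested gene, with COL1A2, DCN, PDGFRA, THY1, CDH5, KDR, TEK, HBA1, HBA2 and SLC4A1 listed at 0, and of 6 hepatocyte markers ALB, APOB and FGB were listed at 0. SERPINA1, from the same list, had 7.66 and 7.10 FPKM in control against 6.30 and 6.545 in the other group and was not called (limma adjusted p = 0.0796), and nearly all of that list's sum of 6.39 to 7.70 FPKM was SERPINA1. The part of these shifts in the results below was not tested. Only the fold changes and calls of genes were recomputed after scaling to reads outside the mitochondrial genome.

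NRF2, encoded by NFE2L2, is a transcription factor that KEAP1 holds at a low level until oxidants or electrophiles modify KEAP1. It then pairs with a small MAF protein on antioxidant response elements near genes for glutathione synthesis, thioredoxin reduction, quinone reduction and ferritin, and BACH1 represses many of the same genes. Glutathione and thioredoxin are the main thiol reductants of the cell. Ferritin is a shell of heavy and light chains that stores iron in an unreactive form, and its synthesis is also controlled at the mRNA by the iron regulatory proteins.

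In the libraries labelled knockdown both ferritin chains, the thioredoxin reductase TXNRD1 and the glutathione synthesis enzyme GCLC rose, and the glutathione peroxidase GPX2 fell. HMOX1, NQO1, GCLM, SLC7A11 and SRXN1 did not pass the test. Thus 4 of the 10 were called higher and 1 lower, where 16.8% of the 12777 genes tested were called higher, 13.0% lower and 29.9% in either direction. Among genes at a mean of 5 FPKM or more, fitted alone, 44.2% were called. In that fit, which leaves out SRXN1, 5 members were higher and 2 lower. The 10 genes were chosen with earlier results of these data known, so these shares describe them and test nothing. The median log2 fold change was 0.18 over the 10 genes and 0.0011 over all genes tested. The groups did not overlap for any of the 10 genes, with 8 higher and 2 lower. That was so for 69.7% of all genes tested (35.9% higher and 33.8% lower), so it sets no single gene apart. Genes were called with limma-trend on log2(FPKM + 1) at a Benjamini-Hochberg adjusted p under 0.05, and fold changes are on this scale, which understates those of low genes. Whichever library was left out, fewer genes were called than with all 4 (2152 higher and 1662 lower). Each such fit had 1 residual degree of freedom, and the cause of the drop was not tested.

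**Figure D1:**
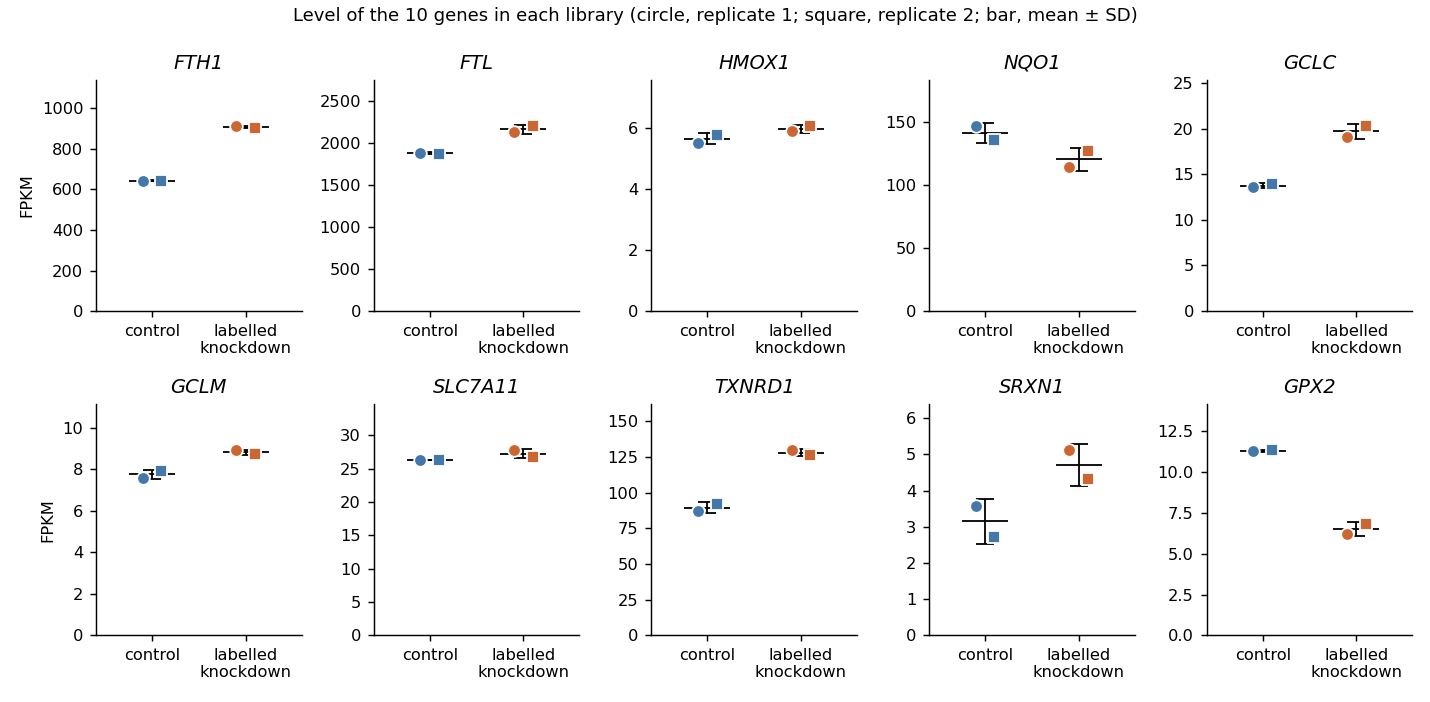
Level of each of the 10 genes in FPKM (vertical axes, each from 0) in the 2 control libraries and the 2 libraries labelled knockdown. Circles are replicate 1, squares replicate 2, and bars the mean ± SD (n = 2). FTH1, GCLC and TXNRD1 stand well above control in both libraries labelled knockdown and GPX2 well below, while the values of HMOX1 and SLC7A11 nearly meet.

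The ferritin genes were the most abundant of the 10, and both rose. FTH1, the heavy chain that oxidises iron for storage (ENSG00000167996, GRCh38 chromosome 11, 61959718 to 61967660), had 644 and 640.3 FPKM in control against 913 and 905 FPKM in those labelled knockdown. Within either group the values lay within 10 FPKM of each other, far closer than the groups did. The means were 642 ± 2.69 and 909 ± 5.80 FPKM (SD, n = 2), a 1.41-fold rise (log2 fold change 0.50, SE 0.03, limma adjusted p = 0.00107). The call held in each of 11 alternatives. FTL, the light chain that helps form the iron core (ENSG00000087086, GRCh38 chromosome 19, 48965301 to 48966878), had 1886 and 1873 FPKM in control against 2128 and 2203 FPKM in those labelled knockdown. Both libraries labelled knockdown were higher, by less than for FTH1. The means were 1879 ± 9.06 and 2166 ± 52.8 FPKM, a 1.15-fold rise (log2 fold change 0.20, SE 0.03, limma adjusted p = 0.0101), and this call was lost with no filter on low values (limma adjusted p = 0.373). By FPKM, FTL ranked 9th, 9th, 8th and 8th among all genes in the 4 libraries, and FTH1 34th and 33rd in control and 20th in both libraries labelled knockdown. Together the 2 genes took 0.300% and 0.297% of reads in control and 0.371% and 0.375% in the libraries labelled knockdown.

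Ferritin mRNA is known for an iron-responsive element, a hairpin in the 5′ UTR that iron regulatory proteins bind to block translation. The element of FTL is shown because it is the feature by which this mRNA is regulated apart from its level, which is all that RNA-seq measures. A search of the FTL coding transcripts of GENCODE 29 on the mRNA strand for an unpaired C, 5 stem bases, the loop CAGTGN and 5 bases that pair with the stem (G-U pairs allowed) found 1 match before the start codon. It lies at chr19:48965334-48965363 (GRCh38, + strand) in the 5′ UTR, and the capitals mark the loop.
FTL: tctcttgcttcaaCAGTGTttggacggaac

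Processed copies of the ferritin genes can share their reads. The 25 listed FTH1 copies held 330, 380, 447 and 434 reads in the 4 libraries, or 1.39% to 1.49% of the FTH1 reads, and the 16 FTL copies held 0.118% to 0.183% of the FTL reads. Exons of FTH1 also overlap 1267 bases of BEST1 on the other strand, which had at most 0.177 FPKM. Whether shared reads were dropped or assigned to 1 gene, and whether strand was used, the labels do not say.

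Glutathione synthesis starts with cystine import and the joining of glutamate and cysteine, and of the members in these steps the catalytic subunit GCLC rose. SLC7A11, the cystine importer of system xc- (ENSG00000151012, GRCh38 chromosome 4, 138164097 to 138242349), had 26.3 and 26.3 FPKM in control against 27.7 and 26.7 FPKM in those labelled knockdown. The 4 values nearly meet, with a log2 fold change of 0.05 (95% interval -0.04 to 0.14, limma adjusted p = 0.355). GCLC, the catalytic subunit of glutamate-cysteine ligase (ENSG00000001084, GRCh38 chromosome 6, 53497341 to 53616970), had 13.6 and 13.9 FPKM in control against 19.1 and 20.3 FPKM in those labelled knockdown. Both libraries labelled knockdown were clearly higher, with means of 13.8 ± 0.246 and 19.7 ± 0.844 FPKM. This is a 1.40-fold rise (log2 fold change 0.49, SE 0.05, limma adjusted p = 0.00293) that held in each of 11 alternatives. GCLM, the modifier subunit that raises the enzyme's efficiency (ENSG00000023909, GRCh38 chromosome 1, 93885205 to 93909456), had 7.60 and 7.895 FPKM in control against 8.905 and 8.72 FPKM in those labelled knockdown. It was slightly higher in both, but the log2 fold change of 0.17 (95% interval 0.04 to 0.29) did not pass (limma adjusted p = 0.0554, and 0.0453 with the filter raised to a mean of 5 FPKM).

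Thioredoxin reductase rose about as much as FTH1 and GCLC. TXNRD1, the cytosolic selenoenzyme that reduces thioredoxin with NADPH (ENSG00000198431, GRCh38 chromosome 12, 104215779 to 104350305), had 87.0 and 92.3 FPKM in control against 129.7 and 126.5 FPKM in those labelled knockdown. The gap between the groups was several times the distance within either. The means were 89.6 ± 3.74 and 128 ± 2.25 FPKM, a 1.43-fold rise (log2 fold change 0.51, SE 0.04, limma adjusted p = 0.00191) that held in each of 11 alternatives. SRXN1, sulfiredoxin, which restores over-oxidised peroxiredoxins (ENSG00000271303, GRCh38 chromosome 20, 646615 to 653370), was the least abundant member, with 170, 144, 238 and 197 reads. It had 3.58 and 2.72 FPKM in control against 5.11 and 4.31 FPKM in those labelled knockdown. Both were higher, but the libraries of each group differed widely, and the log2 fold change of 0.46 (95% interval 0.13 to 0.80) just missed the threshold (limma adjusted p = 0.0519). It passed without control replicate 1 (log2 fold change 0.62, limma adjusted p = 0.0458) and not without any of the other 3 libraries. SRXN1 shares 2292 of its 2698 exon bases with the gene model AL121758.1 on the same strand, which had 0 to 4 reads, so its level depends on how the authors' counter treated shared reads.

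GPX2 was the only member called lower. It is the glutathione peroxidase of the gastrointestinal epithelium, a selenoenzyme that reduces peroxides with glutathione (ENSG00000176153, GRCh38 chromosome 14, 64939152 to 64942905). It had 11.3 and 11.3 FPKM in control against 6.22 and 6.81 FPKM in those labelled knockdown, and the reads behind these were 297, 334, 161 and 173. Control libraries were almost equal and both libraries labelled knockdown lay far under them, with means of 11.3 ± 0.0495 and 6.515 ± 0.412 FPKM. In FPKM + 1, GPX2 fell to 0.610 of control (log2 fold change -0.71, SE 0.06, limma adjusted p = 0.00197), and the call held in each of 11 alternatives. The 3 genes outside the lists whose pattern over the 4 libraries was nearest to that of GPX2 were HOXB8, EHF and FRAS1, by the distance between centred log2(FPKM + 1) values. Their log2 fold changes were -0.72, -0.72 and -0.74, and 4 libraries of 2 groups can hardly tell such patterns apart.

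NQO1 and HMOX1, which are among the best known NRF2 targets, were not called. NQO1, a quinone reductase (ENSG00000181019, GRCh38 chromosome 16, 69706996 to 69726951), had 147 and 135 FPKM in control against 114 and 127 FPKM in those labelled knockdown. Both libraries labelled knockdown were lower, but the libraries within each group lay farther apart than the gap between the groups. The means were 141 ± 8.09 and 120.4 ± 8.90 FPKM, and the log2 fold change of -0.23 (95% interval -0.40 to -0.06) missed the threshold (limma adjusted p = 0.0551). It passed as lower in 5 of 11 alternatives, among them quantile normalization (limma adjusted p = 0.0273) and scaling to non-mitochondrial reads (0.0496). Without knockdown replicate 2 it passed too (log2 fold change -0.30, limma adjusted p = 0.0474), and 2 of the 10 genes were then called lower. HMOX1, heme oxygenase, which releases iron from heme (ENSG00000100292, GRCh38 chromosome 22, 35380361 to 35394214), had 5.53 and 5.80 FPKM in control against 5.90 and 6.08 FPKM in those labelled knockdown. The groups almost touched, at a log2 fold change of 0.07 (95% interval -0.07 to 0.21, limma adjusted p = 0.385).

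**Figure D2:**
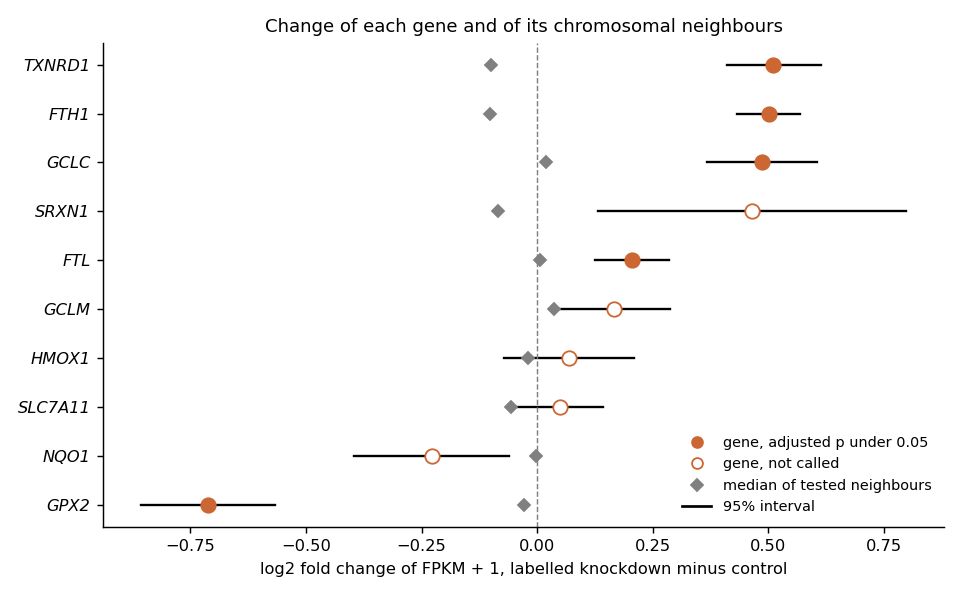
Log2 fold change of FPKM + 1 (horizontal axis, labelled knockdown minus control) of the 10 genes, with the 95% interval of the limma fit as a line. Filled circles passed an adjusted p of 0.05, open circles did not, and grey diamonds are the median of the tested genes on either side on the chromosome. TXNRD1, FTH1 and GCLC lie near 0.5 and GPX2 at -0.71, while no neighbour median goes beyond -0.10 or 0.04.

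The chromosomal neighbours of the 10 genes had medians near 0. The median log2 fold change of the 15 tested genes on either side (24 in all for SRXN1, near the chromosome end) was -0.10 around FTH1 and TXNRD1, and 0.02 around GCLC. It was 0.01 around FTL, -0.03 around GPX2, -0.002 around NQO1 and -0.08 around SRXN1. Around HMOX1, GCLM and SLC7A11 it was -0.02, 0.04 and -0.06.

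Promoter sequences were compared for the core of the antioxidant response element, the site of NRF2 and small MAF proteins. RefSeq windows on GRCh38.p14, from 250 bases before to 50 after a start, were matched for 7 of the 10 genes, with 8 windows in all because TXNRD1 had 2 starts; FTH1, HMOX1 and SLC7A11 were not matched. The letters TGACNNNGC, searched on both strands, were found in GCLM, TXNRD1 and GPX2, that is, in 3 of 7 genes, and in 13.3% of all 35116 windows. They were not found in the windows of FTL, NQO1, GCLC and SRXN1, but elements farther from a start lie outside such windows and were not searched. The AP-1 letters TGANTCA, which can overlap this core, were found in none of the 8 windows and in 7.71% of all windows. Stretches around the matches are shown because these genes, with like letters near their starts, include one that rose, one that fell and one that was not called. Each is given 5′ to 3′ on the gene's strand with the match in capitals, and a match is a description only.
GCLM: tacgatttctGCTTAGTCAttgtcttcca
TXNRD1, first start: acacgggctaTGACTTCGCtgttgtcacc
TXNRD1, second start: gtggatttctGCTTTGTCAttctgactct
GPX2: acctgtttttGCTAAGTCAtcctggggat
They lie at chr1:93909446-93909474 (- strand), chr12:104215670-104215698 and chr12:104286920-104286948 (+ strand), and chr14:64942849-64942877 (- strand). Counted from the start, the matches begin at base -34 for GCLM, at -99 and -102 for the 2 starts of TXNRD1 and at -122 for GPX2, and the first TXNRD1 window held another match that begins at -8. GENCODE 29 places exons of longer transcripts of the same genes over 29 bases of the stretches of GPX2 and of the second TXNRD1 start, and over 11 bases of that of GCLM.

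Because scaling acts alike on each gene of a library, partner or related genes were also set against each other within a library, as ratios of FPKM and with no test. The heavy to light chain ratio FTH1/FTL was 0.342 and 0.342 in control and 0.429 and 0.411 in the libraries labelled knockdown. The ligase subunit ratio GCLC/GCLM was 1.79 and 1.76 in control and 2.14 and 2.33 in the libraries labelled knockdown. Both ratios were higher in each library labelled knockdown than in either control. SLC7A11 against SLC3A2, its partner chain in system xc-, went from 0.318 ± 0.00303 to 0.366 ± 0.0103 (SD, n = 2). TXNRD1 against its substrate TXN went from 0.422 ± 0.0316 to 0.509 ± 0.0102. The widest shift was that of TXNRD1 against NQO1, which are related as NRF2 targets but are not partners. This pair sets a called rise over a fall that was not called. Its ratio was 0.592 and 0.682 in control and 1.14 and 0.999 in the libraries labelled knockdown, with a mean 1.68 times that of control. GPX2 against GPX1, the peroxidase found in most cells, went from 0.0433 ± 0.00233 to 0.0282 ± 0.00245.

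**Figure D3:**
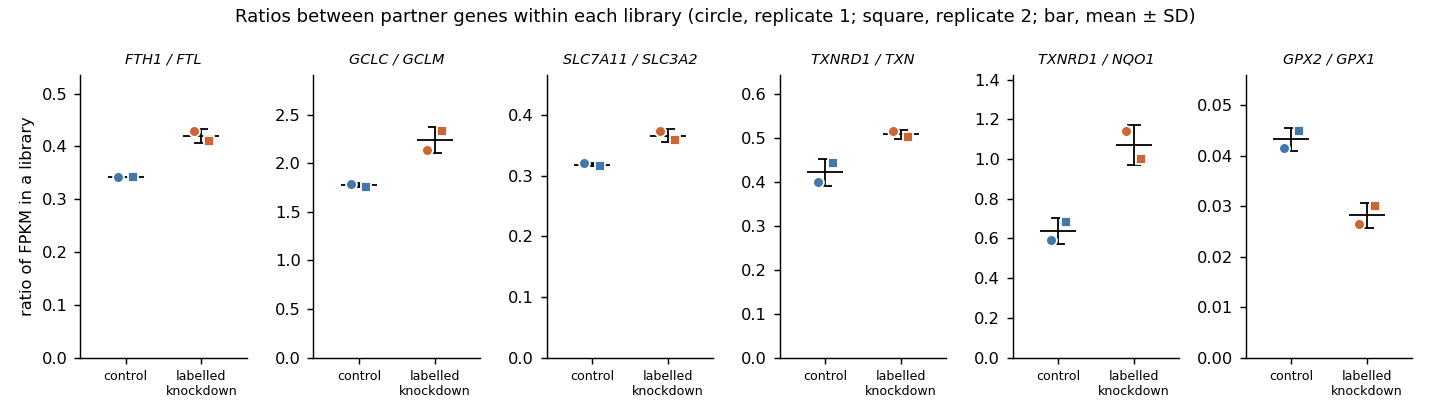
Ratio of the FPKM of 2 partner or related genes within each library (vertical axes, each from 0), in the 2 control libraries and the 2 libraries labelled knockdown. Circles are replicate 1, squares replicate 2, and bars the mean ± SD (n = 2). The 5 ratios on the left are higher in both libraries labelled knockdown, and GPX2/GPX1 is lower.

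The regulators of the pathway moved in both directions. Of 14 tested regulators, 6 rose and 1 fell, with a median log2 fold change of 0.12, where 16.8% of all genes tested rose and 13.0% fell. The gene that fell was NFE2L2, which encodes NRF2 itself. Its mean was 33.1 ± 1.97 FPKM in control and 24.3 ± 0.795 in the other group, which is 0.743 of control (limma adjusted p = 0.00565), and the call held in each of 11 alternatives. KEAP1, its inhibitor, had 41.8 ± 0.767 and 41.4 ± 2.27 FPKM (limma adjusted p = 0.842). The autophagy receptor SQSTM1, which binds KEAP1, rose 1.36-fold, from 80.2 ± 0.103 to 109 ± 2.88 FPKM (limma adjusted p = 0.00179). NFE2L3, a relative of NRF2, rose 1.78-fold (limma adjusted p = 0.00164). The repressor BACH1 rose 1.23-fold, and the small MAF genes MAFF, MAFK and MAFG rose 1.51, 1.21 and 1.14-fold (limma adjusted p = 0.0144, 0.0130, 0.0144 and 0.0491). These last 4 calls were less firm. BACH1 and MAFK lost theirs with control replicate 1 left out (both limma adjusted p = 0.0703) and without knockdown replicate 1 (0.0712 and 0.0638), and MAFF without knockdown replicate 1 (0.0627). The MAFG call did not survive leaving out any library (limma adjusted p = 0.0787 to 0.183), quantile normalization (0.101) or scaling to non-mitochondrial reads (0.0559). With no filter on low values all 4 lost theirs (limma adjusted p = 0.0527 to 0.130).

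Glutathione enzymes outside the 10 genes also split. Of 12 tested genes of synthesis and recycling, 3 rose and 5 fell, with a median log2 fold change of -0.13 and 66.7% called against 29.9% of all genes tested. GSS, which completes glutathione, rose 1.18-fold and GSR, which reduces it, 1.16-fold (limma adjusted p = 0.0124 and 0.0120). Each lost its call when any of 3 libraries was left out (limma adjusted p = 0.0523 to 0.0640 for GSS, which kept it only without knockdown replicate 1, and 0.0519 to 0.0640 for GSR, which kept it only without control replicate 2). The genes that fell include suppliers of NADPH for that reduction. PGD, of the pentose phosphate pathway, fell to 0.812 of control (limma adjusted p = 0.00459), and IDH1 fell to 0.789 (0.00596). CHAC2, which degrades glutathione, fell to 0.701, and SLC3A2 to 0.903 (limma adjusted p = 0.0200), a call lost whichever library was left out (0.0663 to 0.0905). TALDO1, another pentose phosphate gene from the list of other NRF2 targets, fell to 0.750, but the tested genes around it on chromosome 11 had a median of -0.51.

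Among the other peroxidases 1 rose and 2 fell, of 4 tested, where 29.9% of all genes were called. The secreted GPX3 rose 1.29-fold, from 23 ± 0.402 to 29.9 ± 0.413 FPKM (limma adjusted p = 0.00323). GPX4, which reduces lipid peroxides in membranes and protects from ferroptosis, had 138.5 ± 1.59 and 139 ± 0.223 FPKM (log2 fold change 0.009, limma adjusted p = 0.834). GPX7, of the endoplasmic reticulum, fell to 0.666 (limma adjusted p = 0.0104), and GPX1 to 0.884 (limma adjusted p = 0.0367). The GPX7 call was lost when control replicate 2 was left out (limma adjusted p = 0.0571) and with no filter (0.0584). The GPX1 call was lost with no filter (0.149) and with each library left out (0.0859 to 0.140) except control replicate 2. Of 12 tested glutathione transferases, 5 rose and 4 fell, at a median log2 fold change of 0.13 and with 75.0% called against that 29.9%. GSTM3 fell to 0.586 of control and GSTT2B to 0.739, while GSTO1 rose 1.29-fold and GSTK1 1.46-fold. GSTK1 lies on chromosome 7 among genes with a median of 0.24, and the transferases have close paralogs that can share reads.

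In the thioredoxin system 6 of 24 tested genes other than TXNRD1 and SRXN1 rose and 3 fell, at a median of 0.03. With 37.5% called, where 29.9% of all genes tested were, 16.8% higher and 13.0% lower, these counts lay near the background. TXNIP, which binds and inhibits thioredoxin, had the largest change of the tested genes in this list. It had 31.3 ± 0.0995 FPKM in control and 13.6 ± 0.956 in the other group, a fall to 0.451 of control (limma adjusted p = 0.000904). TXN, thioredoxin, rose 1.18-fold (limma adjusted p = 0.00755), a call lost with no filter (0.0523). PRDX1, the peroxiredoxin that thioredoxin reduces, rose from 299.9 ± 5.92 to 369 ± 3.50 FPKM, and the monothiol glutaredoxin GLRX3 rose 1.26-fold. The other peroxiredoxins, named after their values were seen, did not move one way. PRDX2 and PRDX4 fell to 0.899 and 0.853 of control and PRDX6 rose 1.09-fold (limma adjusted p = 0.0446, 0.0137 and 0.0446), calls that held in 5, 8 and 4 of 11 alternatives (highest adjusted p 0.167, 0.0703 and 0.174). PRDX3 and PRDX5 had log2 fold changes of -0.10 and 0.03 and were not called (limma adjusted p = 0.0773 and 0.552).

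Other genes of iron handling moved in both directions. Of 15 tested other than the ferritins, 3 rose and 5 fell, at a median of -0.02. The share called was 53.3% against 29.9% of all genes tested, and the 3 that rose lay near the 16.8% of all genes that did. HEPH, a ferroxidase of iron export, rose 1.52-fold (limma adjusted p = 0.00811, and 0.0523 with no filter). STEAP3, an endosomal iron reductase, fell to 0.770 (limma adjusted p = 0.00905). The transferrin receptor TFRC rose 1.10-fold, from 96.1 ± 0.358 to 105.8 ± 0.411 FPKM (limma adjusted p = 0.0216), and NCOA4, which delivers ferritin to lysosomes, rose 1.10-fold (0.0480). Neither call survived leaving out any library (limma adjusted p = 0.0791 to 0.0963 for TFRC and 0.0840 to 0.182 for NCOA4) or using no filter (0.0554 and 0.114). NCOA4 lost its call under quantile normalization (limma adjusted p = 0.106) and scaling to non-mitochondrial reads (0.0534) too. Of the iron regulatory proteins, IREB2 fell to 0.834 (limma adjusted p = 0.0145), a call that held in 8 of 11 alternatives. It was lost when control replicate 2 or either library labelled knockdown was left out. ACO1, the other one, had a fold change of 1.10 (limma adjusted p = 0.0665). In the ferroptosis list, 3 of 12 tested genes other than FTH1 and SLC7A11 rose and 0 fell, so that the 25.0% called lay under the 29.9% of all genes tested. AIFM2, which regenerates a lipid antioxidant, rose 1.31-fold.

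The list of further NRF2 targets split evenly. Of 27 tested, 8 rose and 8 fell, at a median of -0.01 and with 59.3% called. ALDH3A1, an aldehyde dehydrogenase, rose 1.56-fold, with means of 89.2 ± 1.21 and 140.1 ± 2.07 FPKM (limma adjusted p = 0.000893). PTGR1, a reductase of lipid aldehydes and prostaglandins, rose 1.47-fold and the channel gene PANX2 1.54-fold. Over all the redox, iron and heme lists without the 10 genes, 37 of 140 tested genes rose and 33 fell, so that 70 of 140 were called, where the share among all genes was 29.9%. That share was 44.2% among genes at a mean of 5 FPKM or more, fitted alone. In that fit 40 genes of these lists rose and 28 fell, out of fewer tested. The 70 of 140 come from the fit of all genes tested, so they are not matched to the 44.2%. Whichever library was left out, 21 to 27 rose and 16 to 19 fell.

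**Figure D4:**
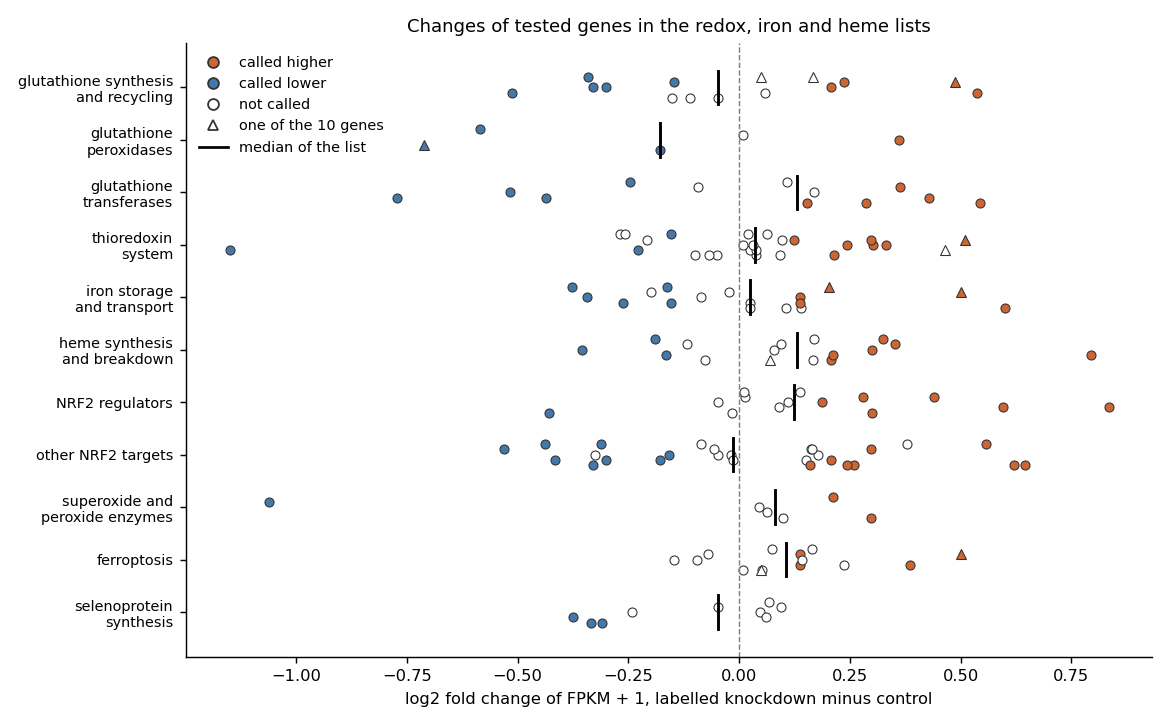
Log2 fold change of FPKM + 1 (horizontal axis, labelled knockdown minus control) of each tested gene in 11 lists of redox, iron and heme genes, 1 list per row, with a gene shown in each list that holds it. Orange was called higher, blue lower and white not called, triangles are members of the 10 genes, and a black line is the median of a list. Each list has genes on both sides of 0, and the medians lie between -0.18 and 0.13.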

How the data were processed

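The 4 RNA-seq libraries, 2 control and 2 labelled PPDPF knockdown, were grouped by genotype label. The authors deposited FPKM per gene, 1 table per library, per the file headers. HISAT2 2.0.5 and the build hg18 are named per the submitters' processing notes; counter, strand setting and any filter: not given in the sources used here. All 58735 IDs matched GENCODE 29, so coordinates are on GRCh38. FPKM times the union exon length gave whole reads for 100% of values above 0, within 0.01 of a read.

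The 12777 genes whose mean reached 1 FPKM entered a limma-trend fit of log2(FPKM + 1) values (limma 3.58.1, R 4.3.3). The test was two-sided, with the group as the only term and 2 residual degrees of freedom. The fit was also run on simulated reads with a fixed dispersion not estimated from these libraries. The outcome of that run is not given here and lends the calls no support. Lists were described by counts and medians. SOD2, with 2 IDs, was taken at the more abundant one. Genes named were PPDPF, the 10 genes, regulators listed by name and up to 4 genes with the smallest p per list. To these were added the 3 tested genes outside the lists nearest in pattern to the member with the largest change. Not every gene under this rule is reported here. The 10 genes and the lists were chosen with earlier results of these data known. The alternatives were another pseudocount, filter, normalization or test (voom), a replicate block, and each library left out. Figures were drawn with matplotlib 3.10.9.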

Additional observations from a re-analysis of the deposited data

How the results depend on the processing

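Over 11 alternatives none of the 10 genes changed direction, and FTH1, GCLC, TXNRD1 and GPX2 kept their calls in each. FTL kept a log2 fold change of 0.20 with no filter on low values but lost its call (limma adjusted p = 0.373). NQO1, at -0.23, passed as lower with a mean FPKM of at least 5 (-0.23), quantile normalization (-0.24), scaling to non-mitochondrial reads (-0.24) and voom on recovered reads (-0.25). GCLM passed with a mean FPKM of at least 5 (0.17), where SRXN1 has no value. SRXN1 passed with voom (0.58). Members called lower were therefore 2 with each of those 4 settings. With libraries left out in turn, log2 fold changes were -0.30 to -0.15 for NQO1 and 0.31 to 0.62 for SRXN1, and 1 to 2 members were called lower.

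With no filter, 1134 genes rose and 734 fell, and in the redox, iron and heme lists 20 and 18. With voom 2708 genes fell. With libraries left out in turn, 1141 to 1345 genes rose and 775 to 919 fell, and in the lists 21 to 27 and 16 to 19. GPX4, at 0.009, turned to -0.022 with quantile normalization and -0.015 with voom, and ranged from -0.003 to 0.021 with libraries left out in turn. KEAP1, at -0.015, ranged from -0.069 to 0.04 with libraries left out in turn, and neither gene was called in any setting. The cause of these shifts was not tested.

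With the replicate number as a block, SRXN1 passed as higher (log2 fold change 0.46, limma adjusted p = 0.0205), no other of the 10 genes changed its call, and 1899 genes rose and 1405 fell. Deviations of same-numbered libraries from their group means correlated with an r of -0.002 over 12777 genes. With 2 libraries per group, this cannot show whether same-numbered libraries shared a culture or batch. HMOX1 and SRXN1, with 144 to 274 reads per library, and GPX2, with 161 to 334, have the least depth of the 10.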

Other observations

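Heme genes changed in both directions. Of 15 tested genes of heme synthesis and breakdown other than HMOX1, 6 rose and 3 fell, at a median log2 fold change of 0.17 and with 60.0% called against 29.9% of all genes tested. ALAS1, which catalyses the first and limiting step of heme synthesis, rose from 43.4 ± 0.935 to 75.95 ± 0.191 FPKM (SD, n = 2), 1.73-fold (limma adjusted p = 0.000746). The call held in each of 11 alternatives, and its chromosomal neighbours had a median of -0.02. BLVRB, a biliverdin reductase, rose from 49.6 to 62.4 FPKM (limma adjusted p = 0.00755). FLVCR1, a heme exporter, fell to 0.782 (limma adjusted p = 0.0117), a call lost without control replicate 2 (0.0569) or knockdown replicate 1 (0.0574), or with no filter on low values (0.0501).

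Among 6 tested genes of superoxide and peroxide metabolism 2 rose and 1 fell, where 16.8% of all genes tested rose and 13.0% fell. NOX1, the superoxide-producing oxidase of colon epithelium, had 3.36 ± 0.459 FPKM in control and 1.09 ± 0.0518 in the other group. In FPKM + 1 this is a fall to 0.479 of control (limma adjusted p = 0.00380), which understates the fall in FPKM of so low a gene. SOD1, the cytosolic superoxide dismutase, rose 1.16-fold (limma adjusted p = 0.00857). Catalase, CAT, rose 1.23-fold (limma adjusted p = 0.0202), a call kept only without knockdown replicate 1 when a library was left out (0.0556 to 0.0802 without each other one) and lost with no filter (0.0807). SOD2, the mitochondrial dismutase, had a fold change of 1.07 (limma adjusted p = 0.277).

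TXNRD1 and GPX2 are selenoproteins. Of 9 tested genes in the list of selenoprotein synthesis and supply, 0 rose, 3 fell and 6 were not called (limma). The 33.3% called lay near the 29.9% of all genes tested. SEPHS2, named after its values were seen, had 45.7 ± 2.01 and 47.7 ± 2.67 FPKM and was not called (limma adjusted p = 0.446). SEPHS1 fell to 0.793 (limma adjusted p = 0.00334), LRP8, a receptor for selenoprotein P, to 0.771 (0.0105) and EEFSEC, the elongation factor for selenocysteine, to 0.807 (0.0299). The LRP8 call was lost when control replicate 2 or knockdown replicate 1 was left out. The EEFSEC call held in 7 of 11 alternatives. Among the fits with 1 library left out it held only without control replicate 2, and it was lost with no filter (limma adjusted p = 0.106).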
